A study of Mus musculus with 4 samples.

Results

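CpG islands that the authors' annotation places away from promoters gave 1519 accessible regions in mouse blood stem and progenitor cells, of 69759 accessible regions in all. They were chosen as the intervals annotated with at least 1 CpG island and 0 promoters, and intervals of different libraries that shared at least 1 base were merged into 1 region. The rule took 5273 of 220733 intervals, of which 46910 carried a CpG island. The rule used annotation only and no measured value, although a longer interval has more chance of touching an island.

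Open chromatin was measured by ATAC-seq, in which a transposase cuts and tags DNA that is not covered by nucleosomes. Each library came from 50000 sorted bone marrow LSK cells (Lin-Sca1+Kit+), the fraction that holds blood stem cells and early progenitors. Of the 4 libraries, 2 came from p53R248W/+ mice, which carry 1 mutant and 1 wild-type p53 allele (R248W 1 and R248W 2), and 2 from p53+/+ mice (WT 1 and WT 2). The design asks how mutant p53 acts on gene transcription in these cells, and the labels give no age, treatment or other allele. Separate animals behind the 2 libraries of each genotype are not stated, so the spread between them may be technical.

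CpG islands are stretches of DNA rich in the dinucleotide CpG that mostly stay free of DNA methylation. Most lie at gene promoters. Islands far from annotated promoters, often called orphan islands, are known to include alternative transcription starts, starts of non-coding RNAs, and elements that are bound by Polycomb complexes near developmental genes.

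The values are the authors' own: the signal of an interval is that of its highest bin of about 32 bases, and no source used here gives the sequencing depth or how this signal was scaled between libraries. The 4 lists held 60385 intervals in R248W 1, 51150 in R248W 2, 46720 in WT 1 and 62478 in WT 2, with median signals of 62, 50, 52 and 62 in the same order. Levels were therefore also expressed as percentiles within each library's own list. Such a percentile also depends on how many weak intervals the list holds, and the lists differ in length. A library that lists no interval at a place had no call there, which does not show closed chromatin. In bulk samples, fewer cells with an open site and a less open site per cell cannot be told apart. Intervals within 1 kb of the starts of the progenitor marker Kit (312, 172, 143 and 277 in the same library order) and of 4 others of the 8 progenitor markers were called in all 4 libraries, and 3 of the 8 had none there (Ly6a, Gata2 and Erg). Of 10 lineage markers, 7 had no such interval, while Itgam had one in all 4 libraries, and of 5 stromal and endothelial markers, Pecam1 and Col1a1 had them in all 4 and 2 had none. None of the 7 lineage and 5 stromal or endothelial markers with any assigned interval had an island away from a promoter. Among all genes with an interval the share was 6.03%, so with so few markers none is near that share. The part of such cells in the results was not tested.

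A large minority of these regions held a gene start after all. In the RefSeq start table of the same build (GRCm38.p6), starts could be looked up for 1478 regions, of which 393 (26.6%) held one, against 1027 of 47220 regions without island or promoter (2.17%). The sequences shown are the 250 bases before that start in the 6 start-holding regions that rank highest by the lowest of their 4 signals. They are followed by 4 regions that were added after their values were seen because results turn on them, and in all 10 each CpG is in capitals.
Cic, chr7:25267449-25267698, plus strand: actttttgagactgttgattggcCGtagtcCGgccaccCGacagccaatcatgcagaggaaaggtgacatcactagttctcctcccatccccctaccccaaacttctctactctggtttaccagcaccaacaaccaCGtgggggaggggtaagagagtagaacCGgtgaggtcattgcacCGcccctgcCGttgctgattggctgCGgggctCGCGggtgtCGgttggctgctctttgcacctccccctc
Hdac4, chr1:92180342-92180591, minus strand: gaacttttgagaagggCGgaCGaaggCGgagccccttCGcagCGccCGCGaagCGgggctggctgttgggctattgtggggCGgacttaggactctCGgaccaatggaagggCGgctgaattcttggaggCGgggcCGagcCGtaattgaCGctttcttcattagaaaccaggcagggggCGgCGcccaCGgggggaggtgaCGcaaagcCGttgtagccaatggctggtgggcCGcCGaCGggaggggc
D130051D11Rik, chr15:85634346-85634595, plus strand: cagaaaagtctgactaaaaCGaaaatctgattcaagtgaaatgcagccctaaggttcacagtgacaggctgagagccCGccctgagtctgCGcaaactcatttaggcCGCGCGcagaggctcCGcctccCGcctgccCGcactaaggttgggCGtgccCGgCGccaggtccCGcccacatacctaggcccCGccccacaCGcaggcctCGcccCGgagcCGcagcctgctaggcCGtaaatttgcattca
Iffo2, chr4:139574470-139574719, plus strand: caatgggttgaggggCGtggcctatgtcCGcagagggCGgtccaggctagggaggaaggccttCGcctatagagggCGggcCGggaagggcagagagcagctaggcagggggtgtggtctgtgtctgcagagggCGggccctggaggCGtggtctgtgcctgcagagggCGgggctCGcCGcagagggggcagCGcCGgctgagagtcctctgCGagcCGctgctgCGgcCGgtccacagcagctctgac
Gm26901, chr1:7398097-7398346, minus strand: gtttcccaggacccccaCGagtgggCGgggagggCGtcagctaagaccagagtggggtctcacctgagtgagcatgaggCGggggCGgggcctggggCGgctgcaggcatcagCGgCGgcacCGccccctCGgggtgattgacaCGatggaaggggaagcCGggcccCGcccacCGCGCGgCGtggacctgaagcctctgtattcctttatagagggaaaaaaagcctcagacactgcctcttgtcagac
Ptprs, chr17:56462222-56462471, minus strand: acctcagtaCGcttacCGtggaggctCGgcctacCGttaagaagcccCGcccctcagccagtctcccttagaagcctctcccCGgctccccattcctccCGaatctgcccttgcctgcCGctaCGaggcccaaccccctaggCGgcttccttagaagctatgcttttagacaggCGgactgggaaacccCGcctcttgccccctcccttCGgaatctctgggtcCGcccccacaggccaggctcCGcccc
Runx1, chr16:92697330-92697579, minus strand: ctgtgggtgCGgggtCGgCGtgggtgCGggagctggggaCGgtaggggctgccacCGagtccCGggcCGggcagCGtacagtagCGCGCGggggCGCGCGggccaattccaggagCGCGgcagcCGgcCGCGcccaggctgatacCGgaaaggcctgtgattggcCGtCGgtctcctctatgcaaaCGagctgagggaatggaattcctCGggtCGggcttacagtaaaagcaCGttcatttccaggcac
Sesn1, chr10:41887189-41887438, plus strand: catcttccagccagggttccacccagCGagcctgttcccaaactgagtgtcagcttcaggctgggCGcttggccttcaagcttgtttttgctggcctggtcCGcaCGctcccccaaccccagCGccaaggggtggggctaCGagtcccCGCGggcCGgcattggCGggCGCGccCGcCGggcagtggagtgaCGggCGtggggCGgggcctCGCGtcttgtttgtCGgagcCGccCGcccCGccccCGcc
Dnmt3a, chr12:3891494-3891743, plus strand: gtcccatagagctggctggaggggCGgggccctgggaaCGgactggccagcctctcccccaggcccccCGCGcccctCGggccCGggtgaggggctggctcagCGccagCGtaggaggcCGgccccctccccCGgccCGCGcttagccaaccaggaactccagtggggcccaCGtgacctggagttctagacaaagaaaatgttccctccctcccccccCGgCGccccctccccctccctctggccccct
Lhx9, chr1:138842445-138842694, minus strand: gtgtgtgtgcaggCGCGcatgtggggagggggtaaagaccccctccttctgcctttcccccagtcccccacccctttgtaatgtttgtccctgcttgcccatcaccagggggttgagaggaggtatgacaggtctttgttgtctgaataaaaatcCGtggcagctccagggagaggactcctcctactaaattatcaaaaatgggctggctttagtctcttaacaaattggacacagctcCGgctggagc
The sequences are from RefSeq, are written 5′ to 3′ on the strand of the gene, and end at the base before the start. The first 6 held 11 (Cic), 23 (Hdac4), 19 (D130051D11Rik), 17 (Iffo2), 17 (Gm26901) and 15 (Ptprs) CpG. The stretch before the Runx1 start held 27 CpG, 0.978 of the number its C and G content would give by chance order, and that before the Sesn1 start held 24 (0.758). The stretch before the Dnmt3a start held 15 (0.459) and that before the Lhx9 start held 4 (0.223), so the Lhx9 stretch is not itself dense in CpG.

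The regions lay mostly inside genes, by shares that were not set beside those of all regions. By the authors' positions, 816 of 1519 (53.7%) lay inside a gene, 471 (31.0%) had no assigned gene, 178 (11.7%) lay only downstream and 37 (2.44%) only upstream of their genes, and 17 (1.12%) lay upstream of one assigned gene and downstream of another, by the strand of each gene. Where an interval lay inside a single gene (2043 intervals), its summit stood a median of 27565 bases downstream of the start, with quartiles of 11417.5 and 74681.5. The share of regions called in all 4 libraries was 74.6% inside genes and 77.1% with no assigned gene, so the regions without a gene were called about as widely.

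The authors' promoter window fixed which islands entered. Among intervals with 1 assigned gene, the nearest that still counted as away from a promoter lay 8151 bases upstream of Gm12538 (signal 59 in R248W 1) and 2858 bases downstream of the start of Rtp2 (43 in R248W 2). The farthest that carried a promoter lay 9649 bases upstream of Zbtb33 (79 in WT 2) and 5789 bases downstream of the Sox17 start (285 in R248W 1). The 2 distances overlap, so a few islands at the same distance fell on either side of the rule.

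Most regions were 1 island each. A single island lay in 1455 regions, 2 islands in 61 and 3 in 3, and the median length was 1670 bases (quartiles 1270 and 2271.5, range 578 to 6964). The longest lay in Gse1, which encodes a partner of a histone deacetylase and demethylase complex (chr8:120533951-120540915, 6964 bases). It had signals of 168 in R248W 1, 116 in R248W 2, 115 in WT 1 and 192 in WT 2. The others of the 5 longest lay at G530011O06Rik and Mid1 on chromosome Y, at Ywhaz, Tsc22d1 and Gm26839, and all were called in all 4 libraries. The 3 regions with 3 islands lay at Ltbp4 (226, 174, 122 and 245), at 1700067P10Rik (100, 86, 64 and 71) and at a place with no assigned gene on chromosome 19 (46, 39, 23 and 45), with values in the order R248W 1, R248W 2, WT 1, WT 2.

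Islands away from promoters were called in all 4 libraries more often than accessible regions in general, although the rule itself favors shared regions. A region enters if an interval of any library meets the rule, and the share of promoter islands called in all 4 was not computed. Of the 1519 regions, 1150 (75.7%) were called in all 4 libraries, against 58% of all merged regions, which include these 1519, and 49.9% of merged regions with neither island nor promoter. A further 142 (9.35%) were called in 3, 101 (6.65%) in 2 and 126 (8.29%) in 1. Of the 142 called in 3 libraries, 110 were missing from WT 1, the shortest list, 21 from R248W 2, 7 from WT 2 and 4 from R248W 1, and of the 126 called in 1 library, 61 were in WT 2, 33 in R248W 1, 27 in R248W 2 and 5 in WT 1.

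**Figure D1:**
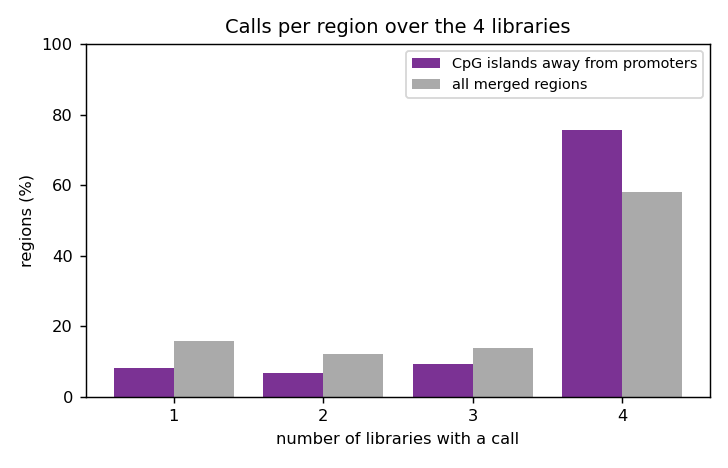
Share of regions (y axis, percent) by the number of libraries with a call (x axis), for CpG islands away from promoters (purple, 1519 regions) and all merged regions (grey, 69759). The purple bar is higher than the grey one at 4 libraries (75.7% against 58%) and lower at 1, 2 and 3.

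These islands also ranked above other accessible sites away from promoters within every library. Their median percentile was 66.2 in R248W 1, 65.3 in R248W 2, 63.6 in WT 1 and 64.9 in WT 2, while intervals without island or promoter had 40.5, 40.0, 38.9 and 41.0 in the same order. Islands at promoters had 85.7, 83.7, 83.6 and 85.7. The medians do not overlap between the 3 classes, and that of the islands away from promoters stood between the others in all 4 libraries, while the quartiles of the classes overlapped. The difference from the sites without an island was 24.9 ± 0.784 percentile points (SD, n = 4 libraries, range 23.9 to 25.7). The exact two-sided paired permutation p was 0.13, the smallest that 4 pairs allow. A longer interval has more chance of meeting the rule, and ranks were not compared at equal length.

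**Figure D2:**
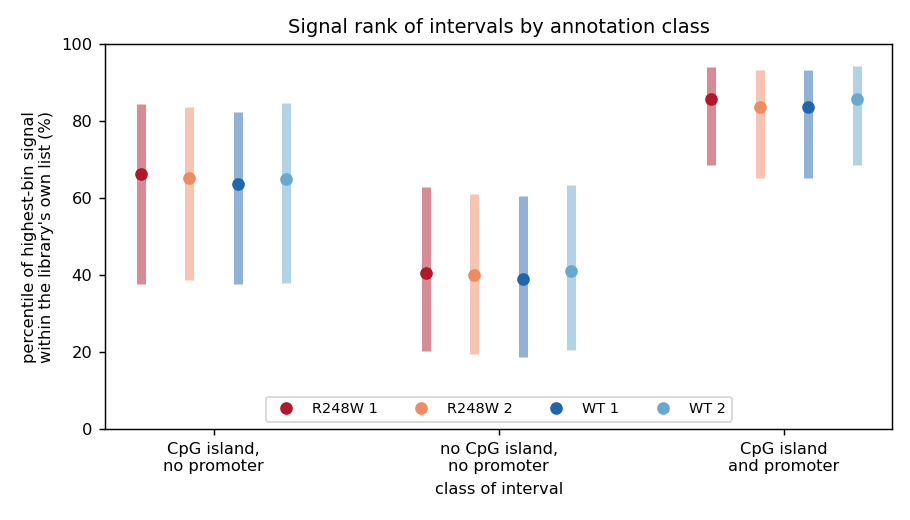
Percentile of the highest-bin signal within each library's own list (y axis, percent) for 3 classes of interval, with the median as a point and the quartiles as a bar for R248W 1, R248W 2, WT 1 and WT 2. Medians of CpG islands without a promoter lie between 63.6 and 66.2, those of intervals with neither between 38.9 and 41.0, and those of promoter islands between 83.6 and 85.7.

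Stronger regions were called in more libraries, so sharing was compared first over all ranks and then at equal rank. Over the libraries, 86.3 ± 6.65% of a library's regions with an island away from a promoter were called in all 4, against 68.8 ± 12.3% of those without island or promoter (SD, n = 4), a difference of 17.5 ± 6.57 percentage points (exact paired permutation p = 0.13). A region called in more libraries has more intervals that can meet the rule, so the rule itself favors shared regions among these islands. Among regions whose mean percentile was below 20, 47 of 280 islands (16.8%) were called in all 4 libraries, against 9.36% of regions without island or promoter. Between 20 and 40 the shares were 61.6% and 46.4%, and between 40 and 60 they were 88.6% and 81.2%. Above 60 the shares nearly met, at 96.4% and 94.9% between 60 and 80 and at 99.5% and 99.0% above 80. The island intervals were longer, with a median of 1522 ± 37.8 bases against 1006 ± 11.7 bases for the intervals without island or promoter, and since length is linked to the rule no p is given.

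The strongest regions called in all 4 libraries ranked near the top of every list, and 2 of the 11 shown lay near microRNA clusters. Cic, the transcriptional repressor capicua, led (chr7:25266603-25270275), with 853 in R248W 1, 549 in R248W 2, 565 in WT 1 and 853 in WT 2. A region at the start of Hdac4, a class IIa histone deacetylase, had 859, 545, 582 and 818 (chr1:92177906-92181564). A region 9112 bases upstream of Foxj2, a forkhead factor, had 872, 479, 532 and 853 in the same order. At these 3 places R248W 1 and WT 2 were high and R248W 2 and WT 1 low, and all 12 of these signals stood at or above percentile 99.5 of their lists.

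The others of the 11 strongest regions showed the same split of libraries. The lncRNA D130051D11Rik had 665, 456, 465 and 649 (R248W 1, R248W 2, WT 1, WT 2). Iffo2 had 726, 434, 487 and 721 at 43884 bases into the gene. Chd2, a chromatin remodeler, had 734, 429, 513 and 716 at 3826 bases into the gene, where the WT 2 interval carries a promoter annotation. The lncRNA Gm26901 had 709, 487, 425 and 721, and Ptprs, a receptor tyrosine phosphatase whose loss in mice raises the repopulating capacity of blood stem cells, had 592, 459, 418 and 616. Srcrb4d had 570, 413, 438 and 639. Of the 11, Cic, Hdac4, D130051D11Rik, Iffo2, Gm26901 and Ptprs hold a RefSeq start, and the authors assign no gene to the Cic, Hdac4, D130051D11Rik and Gm26901 regions.

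**Figure D3:**
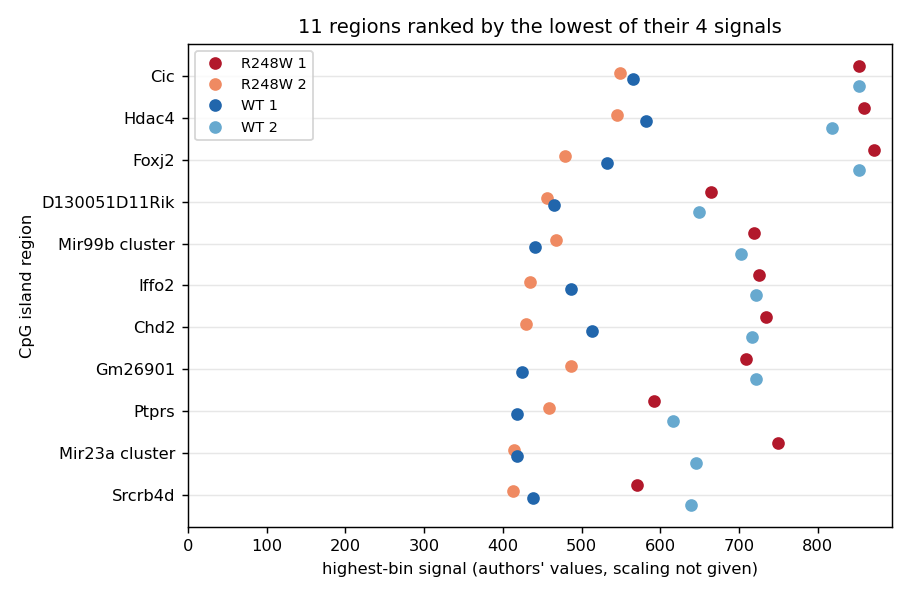
Highest-bin signal (x axis, authors' values) of the 11 regions that rank highest by the lowest of their 4 signals, 1 row per region and 1 point per library. In every row the R248W 1 and WT 2 points lie to the right of the R248W 2 and WT 1 points, as at Cic with 853 and 853 against 549 and 565.

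The same split held over the whole set. In 999 of the 1150 regions called in all 4 libraries (86.9%), the signals of R248W 1 and WT 2 were both above those of R248W 2 and WT 1. The split followed the libraries and not the genotype, and no test of signals between genotypes was made.

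A pair of the strongest regions lay beside microRNA clusters. MicroRNAs are short RNAs that repress messenger RNAs through a seed at bases 2 to 8. In mice, miR-125a raises the number of blood stem cells when overexpressed, and the miR-23a cluster restrains B cell formation. Of the 14 mature forms of the microRNA genes assigned to the 2 regions, 6 are shown from RefSeq, 1 for each gene of both clusters apart from Mir3074-2, with the seed in capitals. No seed is shared among these 6.
mmu-miR-99b-5p: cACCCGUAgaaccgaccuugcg
mmu-let-7e-5p: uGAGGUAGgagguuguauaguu
mmu-miR-125a-5p: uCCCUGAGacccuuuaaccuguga
mmu-miR-23a-3p: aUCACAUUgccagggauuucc
mmu-miR-27a-3p: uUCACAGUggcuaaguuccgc
mmu-miR-24-3p: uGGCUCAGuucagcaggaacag
The first 3 are encoded on chromosome 17, 6178 to 6803 bases upstream of their region (chr17:17837017-17839240), which had 719 in R248W 1, 467 in R248W 2, 441 in WT 1 and 703 in WT 2. The last 3 are encoded on chromosome 8, where the region (chr8:84196850-84199450) lies 9113 to 9425 bases upstream of them, holds 2 islands and had 750, 414, 418 and 645. In all, 20 microRNA genes were assigned to 15 regions, of which 12 (80%) were called in all 4 libraries, near the 75.7% of all these islands, and all 20 matched the RefSeq table. The region 8974 bases upstream of Mir155, a microRNA needed for normal immune responses in mice, had 187, 130, 109 and 169. The region near Mir142, a microRNA abundant in blood cells, was called only in R248W 1, with a signal of 49.

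Regions that held a RefSeq start were the stronger and more widely called share of these islands. Of 393, 345 (87.8%) were called in all 4 libraries, against 768 of 1085 (70.8%) that held none. Their median signals were 141 in R248W 1, 99.5 in R248W 2, 101 in WT 1 and 145 in WT 2, and those of regions that held none were 83, 62, 61 and 79. The starts belonged to coding genes in 312 regions and to lncRNA genes in 105, with both in 24. In 194 regions the start belonged to a gene that the authors had assigned to the region and in 199 it did not, and 125 of those 199 had no assigned gene at all.

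Most of these starts belonged to genes with several starts, which the rule favors, since it leaves out islands at annotated promoters. Of the 520 starts, 70.2% belonged to a gene with more than 1 start in the RefSeq table. The share was 50% of the 1178 starts in regions with neither island nor promoter and 30.4% of all 32851 starts, and no test was made. Some lay deep inside a gene. The Runx1 region (chr16:92696252-92699447), 127282 bases from the start the authors used, holds a start of this master regulator of blood formation and had 171, 83, 96 and 139 (R248W 1, R248W 2, WT 1, WT 2). Dnmt3a, a DNA methyltransferase that restrains blood stem cell self-renewal and has a shorter isoform from an internal start, had 128, 102, 119 and 182 at 85916 bases into the gene. The within-list percentiles overlapped between genotypes at Runx1, whereas at Dnmt3a they were 74.99 and 77.1 in R248W, against 80.3 and 84.0 in WT libraries, so both WT values were higher.

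Some short motifs were less frequent in the 250 bases before these starts than at promoter islands, and others were about equal. No test was made, and the sets were not matched for CpG density. The words were searched on both strands, and none contains another. The ETS-type word CCGGAAG was present before 6.54% of the 520 starts in islands away from promoters, against 14.5% of the 11342 starts in promoter islands and 6.91% of all 32851 starts in the table. The palindromic NRF1 word was present before 0.192%, against 1.80% at promoter islands and 0.782% of all starts. The GC box GGGCGG was about equally frequent, at 66.3% and 66.4%, against 32.7% of all starts. The word CCAAT was present before 28.1%, against 33.7% at promoter islands and 33.8% of all starts, and TATAAA before 5%, against 4.93% and 12.4%. The cAMP-type word TGACGTCA was found before 1.15%, against 2.93% and 1.55%, and the E-box CACGTG before 6.73%, against 8.93% and 6.02%. Windows of neighbouring starts overlap, and a match is a description of letters, not a bound site.

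**Figure D4:**
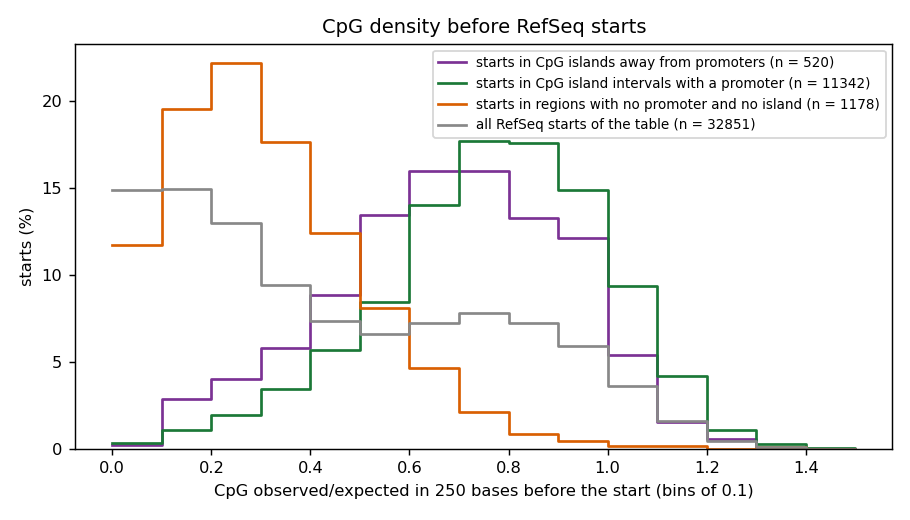
Distribution of CpG observed over expected (x axis, bins of 0.1) in the 250 bases before RefSeq starts, as percent of starts (y axis), for 4 sets. The median was 0.690 for the 520 starts in CpG islands away from promoters, 0.787 at promoter islands, 0.281 in regions with neither and 0.373 over all starts, and the rule itself selects for CpG.

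Several genes of blood formation had such islands, and most of these were called in all 4 libraries; the gene lists were described by counts and not tested. Of 74 blood transcription factor genes with any assigned interval, 13 (17.6%) had one, against 1255 of 20811 genes (6.03%). They made 16 regions, of which 14 were called in all 4 libraries, against 787 of 1048 (75.1%) regions with an assigned gene. The 2 exceptions were Klf1, the erythroid factor, with 77 in R248W 2 and 92 in WT 2, and Nfix, with 34 and 33 in the same libraries. The Klf1 region lay inside Mast1, 11224 bases downstream of the Klf1 start, was also assigned to Dnase2a, and holds the start of the lncRNA Gm38426. None was called in both libraries of 1 genotype alone. The median of the lowest signal was 80, against 51 over all regions with a gene.

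Among them, Tal1, a core stem cell factor, had 185 in R248W 1, 130 in R248W 2, 119 in WT 1 and 184 in WT 2 at 3801 bases into the gene. Its partner Lmo2 had 204, 129, 118 and 181, and Gata2, needed for stem cell maintenance, had 127, 108, 121 and 133 at 8904 bases upstream. Nfia, a factor in the choice between red cells and granulocytes, had 4 regions (chr4:97745350-97779375), of which the strongest had 483, 274, 284 and 455. Meis1 had 60, 40, 51 and 70 in a region downstream of the gene, 147193 bases from its start. Pax5, the B cell commitment factor, had 32, 31, 26 and 26. By within-list percentile, the genotypes overlapped at Tal1, Lmo2, Gata2 and the strongest Nfia region. Meis1 stood at 48.2 and 37.3 in R248W, against 49.1 and 55.3 in WT libraries, and Pax5 at 17.3 and 21.7 in R248W, against 10.3 and 7.40 in WT libraries, so neither overlapped and they differed in direction.

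Chromatin regulators showed a like pattern. Of 64 genes, 11 (17.2%) had 12 regions, against 6.03% of all genes with an interval. Of the 12, 11 were called in all 4 libraries, against 75.1% of regions with an assigned gene. Dnmt1, the maintenance DNA methyltransferase, had 302, 177, 195 and 289 (R248W 1, R248W 2, WT 1, WT 2) in a region that holds one of its starts. Arid1b, a BAF complex subunit, had 276, 177, 163 and 274, and Kdm2b, which brings Polycomb to CpG islands and has a shorter isoform from an internal start, had 277, 157, 199 and 244. Bmi1, a Polycomb protein needed for blood stem cell self-renewal, was the exception, with 101 in R248W 1, 70 in WT 1 and 90 in WT 2 and no call in R248W 2. On chromosome X, Bcor, a subunit of a Polycomb complex and a gene mutated in blood cancers, had 6 such regions within 78851 bases (chrX:12078089-12156940), 5 of them called in all 4 libraries, and the strongest had 315, 197, 169 and 325.

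Such an island was found at 3 of 40 p53 target genes (7.5%), a share close to the 6.03% of all genes. Sesn1, a stress-response gene, had 332 in R248W 1, 217 in R248W 2, 220 in WT 1 and 277 in WT 2 at a start held 76850 bases into the gene. Cdkn1a, the cell cycle inhibitor p21, had 268, 196, 169 and 259 at 4566 bases into the gene, where only the R248W 1 interval meets the rule and the other 3 carry a promoter annotation. Bbc3, the pro-apoptotic factor PUMA, had 208 in R248W 1, 131 in R248W 2 and 197 in WT 2 at 9839 bases upstream, with no call in WT 1. By within-list percentile, Sesn1 stood at 93.8 and 93.1 in R248W, against 93.1 and 91.5 in WT libraries, where R248W 2 and WT 1 were nearly equal. Cdkn1a stood at 90.7 and 91.6 in R248W, against 88.3 and 90.5 in WT libraries, so both R248W values were higher, with R248W 1 and WT 2 nearly equal. Bbc3 stood at 86.2 and 83.4 in R248W libraries, against 85.7 in WT 2, so these overlapped.

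Of the lists counted here, developmental genes had the largest share with such an island, and the signals there were low. Of 125 genes, 33 (26.4%) had 37 regions, against a share of 6.03% of all genes with an interval. Of the 37 regions, 13 (35.1%) were called in all 4 libraries, against 75.1% of the 1048 regions with an assigned gene. The median lowest signal was 29, against 51 over those 1048. Sox17, a factor of endoderm and fetal blood stem cells, had 285, 166, 163 and 288 (R248W 1, R248W 2, WT 1, WT 2), where only the R248W 2 interval meets the rule. The homeobox gene Evx2 had 107, 76, 76 and 103. Of the 37 regions, 3 (8.11%) were R248W-only and 2 (5.41%) WT-only, against 14 (1.34%) and 6 (0.573%) of the 1048 regions with an assigned gene, counts too small to read further. Imprinted genes had 5 regions at 5 of 62 genes (8.06%), near the 6.03% of all genes. Among them were Gnas with 206, 145, 133 and 183 at one of its starts and Grb10 with 135, 99, 59 and 153. No region lay at a clustered protocadherin gene, of which 47 had an interval, against 6.03% of all genes, and no test was made.

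Few islands were called in 1 genotype alone. There were 17 R248W-only regions (1.12%), called in both R248W libraries and neither WT library, against 1.23% of all merged regions and 1.41% of those with neither island nor promoter. There were 8 WT-only regions (0.527%), against 0.827% and 0.97%. Both shares are near the background, and the R248W-only and WT-only sets are small. With 1 library left out, a single library stands for its genotype, so the definition is looser and higher counts follow from it. R248W-only regions then numbered 45 without R248W 1, 51 without R248W 2 and 126 without WT 2. WT-only regions numbered 28 without R248W 1, 69 without WT 1 and 13 without WT 2.

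The regions called in 1 genotype had low signals, and some lay beside a call of the other. The lower of the 2 signals had a median of 23 in the R248W-only set and 25.5 in the WT-only set. The strongest R248W-only region lay at Chpf2, Mir671 and Smarcd3 (chr5:24598123-24599394), with 117 in R248W 1 and 63 in R248W 2, and the nearest interval of a WT library lay 84 bases away. Nbea had 79 and 54, Ccm2l 45 and 38, Magi1 36 and 37, and Pde4a 61 and 35 in the same order. The Nbea region lay 396053 bases from the start of that gene and 5138 bases downstream of the Mab21l1 start. Lhx9, a LIM homeobox gene whose start the region holds, had 50 and 33. The nearest WT interval lay 1306 bases from the Nbea region, 1767 from Ccm2l, 20115 from Magi1, 445 from Pde4a and 258 from Lhx9. A region with no gene on chromosome 4 (chr4:146932059-146933101) had 33 and 31, and the nearest WT interval lay 168138 bases away. Gata4, a heart and endoderm factor, had 31 and 25, and the nearest WT interval lay 3725 bases away.

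The 8 WT-only regions lay at Tbx2, Pax3, Sarm1, Ltbp3, Pdcd2 and Scn8a and at 2 places without a gene. The Scn8a region lay 176357 bases downstream of the Scn8a start and 7359 bases downstream of the Fignl2 start. Tbx2, a T-box repressor, had 60 in WT 1 and 86 in WT 2, and a neighbouring region 138 bases away was called in R248W 1 (77), WT 1 (55) and WT 2 (60). The region on chromosome 12 (chr12:22030259-22031381) had 76 and 42, and the nearest R248W interval lay 415793 bases away. Pax3, a neural crest factor, had 27 and 30, and the nearest R248W interval lay 1200 bases away. Intervals of the other genotype lay within 2 kb of 6 among the 17 R248W-only and 4 among the 8 WT-only ones, against 23.7% and 22.7% of all such regions.

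**Figure D5:**
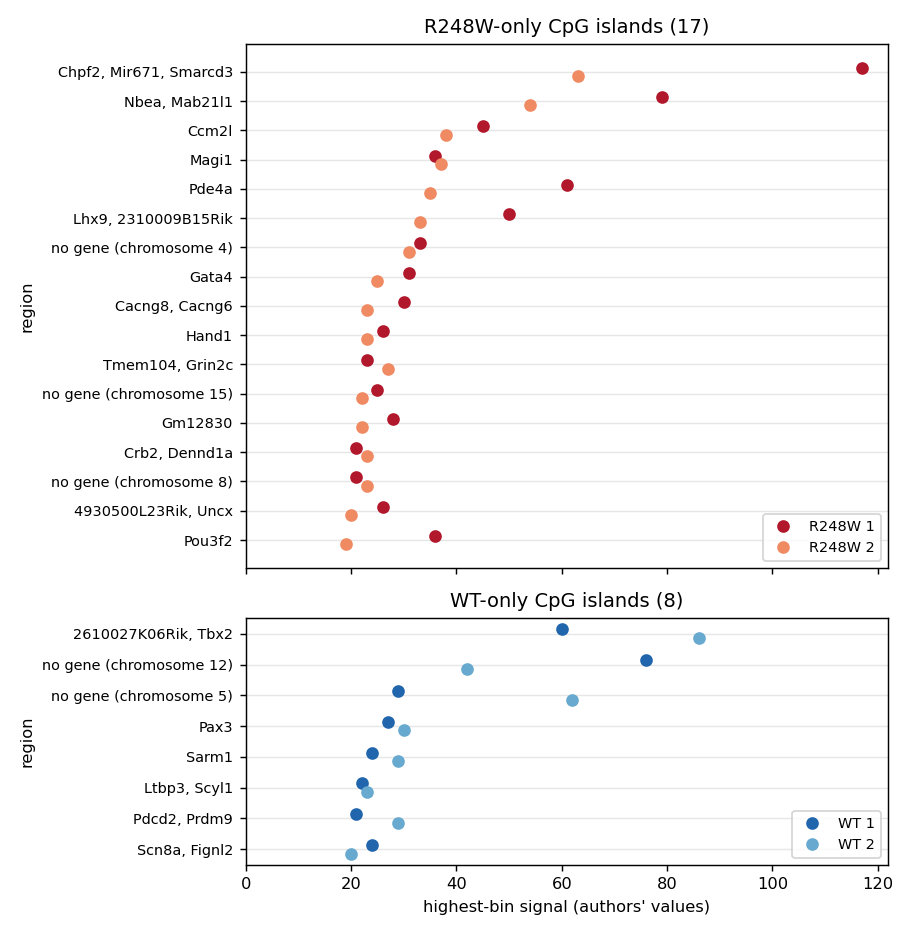
Highest-bin signal (x axis, authors' values) of the 17 R248W-only regions in R248W 1 and R248W 2 (upper panel) and of the 8 WT-only regions in WT 1 and WT 2 (lower panel), 1 row per region. Most points lie at low signals, and the highest are Chpf2 at 117 in R248W 1 and Tbx2 at 86 in WT 2.

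Between genotypes, the number, share and length of these islands overlapped between libraries, while their median percentile was higher in both R248W libraries by a small margin. R248W libraries had 1376 and 1320 such intervals (mean 1348 ± 39.6, SD, n = 2), against 1183 and 1394 in WT libraries (1288.5 ± 149.2), with an exact permutation p of 1. They made up 2.43 ± 0.213% of R248W lists and 2.38 ± 0.213% of WT lists (exact permutation p = 0.667). The median length was 1523 ± 61.5 bases in R248W and 1520.75 ± 22.3 in WT libraries (exact permutation p = 1). The median percentile was 65.7 ± 0.631 in R248W and 64.2 ± 0.876 in WT libraries, where both R248W values were above both WT values, with an exact permutation p of 0.333, the smallest that 2 against 2 libraries allow.

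Region by region, percentiles within the lists were set side by side, a measure added after the values were seen. The unequal list lengths can shift these percentiles. Of the 1150 regions called in all 4 libraries, both R248W percentiles were above both WT percentiles in 182 (15.8%), against 12% of all such regions, and both WT percentiles were above both R248W percentiles in 89 (7.74%), against 8.56%. The widest gap was at a region with no assigned gene on chromosome 12 (chr12:20196103-20197662), whose signals were 24 in R248W 1 and 23 in R248W 2, against 107 in WT 1 and 130 in WT 2. These stood at percentiles of 4.29 and 4.90 in the R248W lists, against 77.3 and 76.1 in the WT lists. Speg, a muscle kinase gene, had 43 and 38 in R248W, against 25 and 23 in WT libraries, and the region near the zinc finger gene Zfp945 had 33 and 28, against 52 and 53. These 3 were chosen for their gaps, so the values are a description.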

How the data were processed

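ATAC-seq intervals of 4 libraries of mouse LSK cells were analysed, 2 p53R248W/+ and 2 p53+/+, grouped by the genotype in the labels. Per the submitters' processing notes, the authors used MACS 1.4.2 and the build mm10. The deposited table holds the highest-bin signal of each interval, a whole number from 16 to 1298, called separately for each library. Per the file headers, it also holds other annotation: length, CpG islands, promoters, genes and distances to starts. No source used here gives the aligner, the shift of read ends, the depth or the signal scaling, so weak calls depend on depth and no interval for counting error can be given. Length equaled end minus start in all 220733 rows, so starts may be counted from 0.

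Intervals sharing at least 1 base were merged, and a region counted as called where any interval of a library touched it; 107 of 5354 calls came from an interval outside the rule. Genotypes and classes were compared over libraries with exact permutation tests (python 3.11.15, numpy 2.4.6, pandas 2.3.3), tested on simulated data. Alternatives covered the overlap rule, weaker intervals, list length, promoter intervals of other libraries, the sex chromosomes, each library left out and the replicate block. Sequences and starts came from RefSeq tables of GRCm38.p6, the same build; the start table has no entry on chromosome 18, which holds 41 of the regions. Named regions were the 12 strongest, those called in 1 genotype (8 where over 10), the 5 longest, those with most islands, the strongest per gene list, 6 holding a start and those of genes with 4 or more regions; others were chosen after their values were seen, and some regions named by these rules are not reported here. The members and lists were chosen with earlier results of these data known.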

Additional observations from a re-analysis of the deposited data

How the results depend on the processing

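Of the recomputed values, 106 kept their direction or, for counts, stayed within 1.5 times, while 9 counts moved further and 6 differences changed sign. With so few libraries no exact p could reach significance at any setting, so only direction and size can be compared. Some of the 106 could not change. The stricter overlap, calls by intervals inside the rule alone and the replicate block leave the intervals as they were, and so their genotype differences. The small genotype differences varied widely in size at other settings, as with 34.75 bases in median length at equal list lengths. With the stronger 50% of each list, 1010 regions remained in the count, 732 called in all 4 libraries and 5 WT-only. Without X and Y, the difference in median length between R248W and WT was -1 base. Leaving out 1 library at a time, which loosens the definition of both sets, gave 24 to 126 R248W-only and 12 to 69 WT-only regions. The differences of R248W minus WT were then -46 to 165 intervals, -0.103 to 0.199 percentage points of a list, -41.25 to 45.75 bases and 0.868 to 2.11 percentile points. The percentile difference was 1.03 points with the stronger 50% of each list (exact permutation p = 0.667), where the genotypes no longer separated. At equal list lengths it was 1.27 points (exact permutation p = 0.333). With the replicate block, the differences were 59.5 intervals (exact p = 1), 0.048 percentage points (exact p = 1), 2.25 bases (exact p = 1) and 1.49 percentile points (exact p = 0.5, the smallest 2 pairs allow). Within-list percentiles of same-numbered libraries did not deviate together, so the numbers were not taken as pairs. Over the 1150 regions called in all 4 libraries, R248W 1 minus R248W 2 had a correlation of 0.0153 with WT 1 minus WT 2. Calls by intervals inside the rule alone gave 1104 regions called in all 4, 20 R248W-only and 11 WT-only. Added after seeing the data, leaving out regions that hold a RefSeq start and chromosome 18 left 1085 regions, 768 called in all 4, and a percentile difference of 19.6 from sites without an island. Unknown depth limits every absent call.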
